A study of Homo sapiens with 3 samples.

Results

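The transforming growth factor beta (TGF-beta) and bone morphogenetic protein (BMP) pathway was read as a set of 41 genes, chosen by symbol from the platform annotation of the arrays. Of these, 40 had at least 1 probe set assigned to that gene alone, 125 such probe sets in all, and 36 genes were measured, out of 12351 measured genes in the series. BMPR1A, a BMP receptor, had no single-gene probe set in the annotation used here. The set was proposed with earlier results of these data known, so its values are a description.

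The RNA came from the human lung adenocarcinoma cell line NCI-H1650 and was read on 3 Affymetrix arrays. One array held cells exposed to 40 μM colossolactone H, a triterpenoid of the fungus Ganoderma colossum, for 24 h. A second array held cells exposed to the same dose for 12 h, and the third held control cells. All were grown in RPMI-1640 with serum. The labels name neither a vehicle nor a collection time for the control, and no genotype or strain differs between the groups. With 1 array a group there is no replicate spread, so no difference below has an error or a p-value, and a batch effect of one dish or one array cannot be told apart from the treatment. The values are signals of whole cultures, in which fewer expressing cells and less RNA per cell cannot be told apart.

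TGF-beta ligands are secreted in a latent complex that binds to LTBP proteins of the matrix, and are released by integrins or by thrombospondin. A type II receptor then activates a type I receptor. TGF-beta and activin signal mainly through SMAD2 and SMAD3, BMPs through SMAD1, SMAD5 and SMAD9, and SMAD4 partners both. In epithelial tumours the pathway is known for growth arrest and for the shift to a mesenchymal state, and it induces its own inhibitors.

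Most genes of the TGF-beta and activin arm were lower on both treated arrays. At 24 h, 18 of its 20 measured genes were below the control by any amount, with a median log2 difference of -0.34. At 12 h 16 of 20 were, with a median of -0.30. Counted as lower though close to 0 were TGFB3 (-0.01), LTBP3 (-0.02) and TGIF1 (-0.02) at 24 h and TGFBI (-0.02) at 12 h. Among all measured genes 49.9% were lower at 24 h and 48.4% at 12 h, with medians of 0.00 at both times. The BMP arm was divided, with 5 of 10 genes lower at 24 h and 4 of 10 at 12 h, and medians of -0.0023 and 0.26. The median of the TGF-beta arm lay 0.34 below that of the BMP arm at 24 h and 0.56 below it at 12 h, with no test possible. The measured ligands and latency genes were all in the TGF-beta arm, and the ID genes were all in the BMP arm. A difference between the arms therefore cannot be fully told apart from one between roles. Across the 6 genes that serve both arms the median was 0.02 at 24 h and -0.04 at 12 h.

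These counts take each gene from its brightest probe set. For 22 members 2 or more sets were above the floor of 61.4 units on all arrays. Their sets pointed both ways for 8 members at 24 h and for 13 at 12 h. Of the 15 TGF-beta arm genes among them, 3 were mixed at 24 h and 7 at 12 h. Sets lay farthest apart for BMPR2 and SKI at 24 h and for SMURF1 at 12 h, as described with those genes. Without BMPR2, SKI and SMURF1, 17 of 19 TGF-beta arm genes were lower at 24 h and 15 of 19 at 12 h. The medians were then -0.48 and -0.26. The BMP arm then had 4 of 9 lower at 24 h and 3 of 9 at 12 h, with medians of 0.15 and 0.28, and the TGF-beta median minus the BMP median was -0.63 at 24 h and -0.54 at 12 h. With each of the 3 read from its brightest opposite probe set where it had one, 17 of 20 and 15 of 20 genes of the TGF-beta arm were lower, with medians of -0.34 and -0.24. In the BMP arm that reading gave 4 of 10 lower at each time, its medians being 0.18 and 0.26. Without every mixed member, 15 of 17 TGF-beta arm genes were lower at 24 h and 11 of 13 at 12 h. The TGF-beta arm was below the BMP arm in each reading, while the BMP median at 24 h changed from just under 0 to above it.

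**Figure D1:**
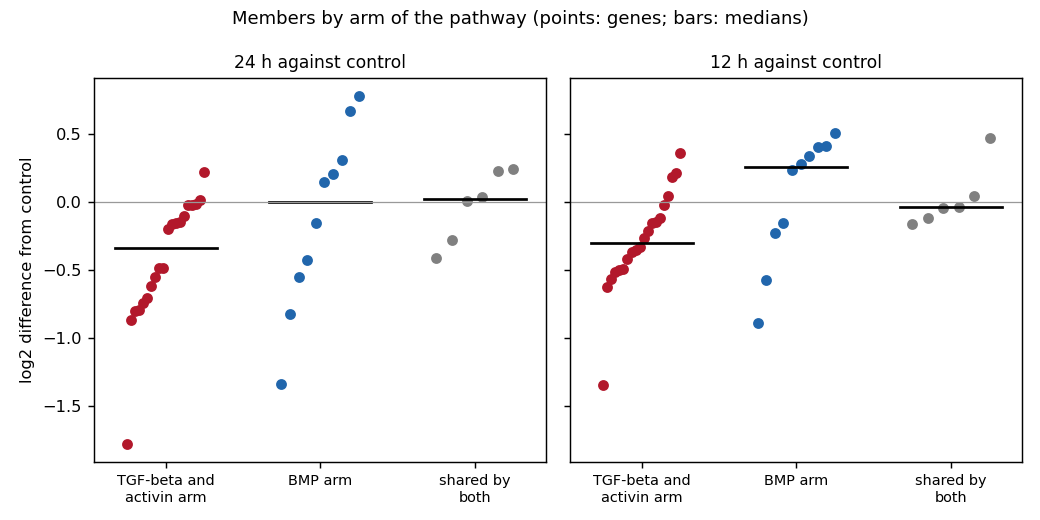
Log2 difference from the control array (y axis) for measured genes of the TGF-beta and activin arm, the BMP arm and genes shared by both, at 24 h (left) and 12 h (right). Each point is 1 gene and bars are medians. The TGF-beta arm has 18 of 20 points below 0 at 24 h, and the BMP arm spreads from SMAD6 at -1.34 to ID4 at 0.78.

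Differences of 2-fold or more were few. At 24 h TGFB2 and SMAD6 were 2-fold or more lower, 2 of 36 members, where 0.640% of all measured genes were, and no member was 2-fold higher, against 0.591% of all genes. At 12 h TGFB2 alone was 2-fold lower, 1 of 36 against a background of 0.437%, and again no member was 2-fold higher (background 0.445%). Between the treated arrays, 24 h against 12 h, no member reached 2-fold in either direction (background 0.178% lower and 0.146% higher).

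A 1.5-fold size was added after the values were seen. By it, 9 of 36 members were lower at 24 h (background 4.91%) and 3 of 36 at 12 h (background 3.10%). The 9 were TGFB2, SMAD6, PMEPA1, ID3, THBS1, FST, LTBP2, SMAD3 and TGFBR1, and the 3 were TGFB2, ID3 and PMEPA1. With the median over a gene's probe sets only the first 5 of those 9 stayed past 1.5-fold at 24 h, and FST (-0.57), LTBP2 (-0.40), SMAD3 (-0.46) and TGFBR1 (-0.35) did not. Higher by that size were ID4 and ID1 at 24 h, 2 of 36 (background 4.09%), and no member at 12 h (background 3.41%). Both comparisons used the same control array, so a low or high control value enters each of them.

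**Figure D2:**
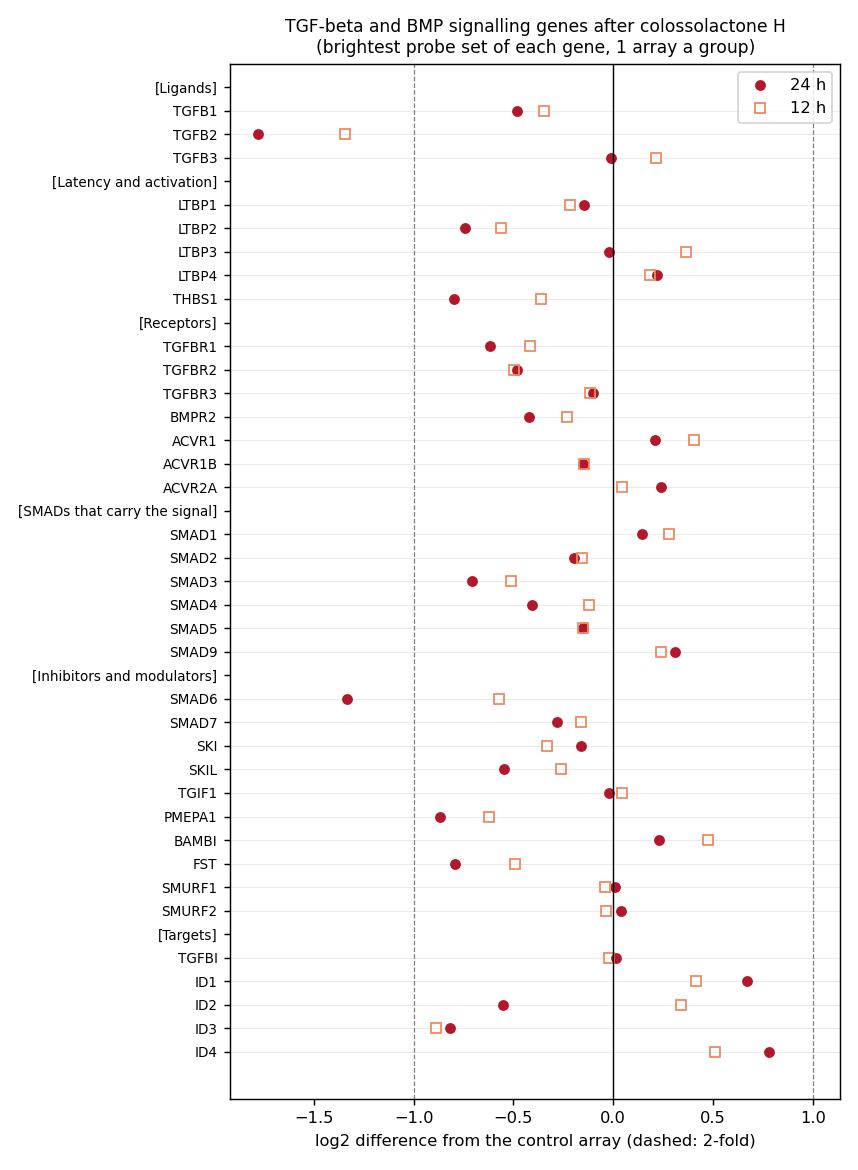
Log2 difference from the control array (x axis) for the 36 measured members, listed by role, at 24 h (filled circles) and 12 h (open squares). Dashed lines mark 2-fold. TGFB2 at -1.78 and SMAD6 at -1.34 lie beyond the lower line at 24 h, and the 24 h value of ID2 is a bound because its signal was below the floor.

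The ligand TGFB2, a secreted TGF-beta isoform, had the largest differences of the measured members. Its brightest probe set, 228121_at, had 242.5 signal units at 24 h, 328 at 12 h and 833 in the control. Both treated arrays were low and the control high, 3.44-fold lower at 24 h (log2 difference -1.78) and 2.54-fold lower at 12 h (-1.35). The second probe set, 209909_s_at, gave 198 at 24 h, 159 at 12 h and 380 in the control, log2 differences of -0.94 and -1.25. The direction from the control was thus the same on both, while their order of 24 h against 12 h was opposite, -0.44 and 0.31. The dimmest readable set, 220407_s_at, was above the floor of 61.4 units only in the control, at 79.3. As the median over the 3 probe sets above the floor on at least 1 array, TGFB2 was at -0.94 at 24 h.

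The other TGF-beta ligands differed less. TGFB1, the isoform most studied in tumours, had 293 signal units at 24 h, 321 at 12 h and 409 in the control, log2 differences of -0.48 and -0.35. Both treated arrays lay below the control. TGFB3 had 106.0 at 24 h, 124 at 12 h and 107 in the control, so that only the 12 h array stood apart, at 0.21 against -0.01 at 24 h. INHBA and INHBB, the subunits of activins, and BMP4, a BMP ligand, were below the floor on all arrays, at no more than 48.0, 15.6 and 2.1 units, and no difference is given for them.

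Of the genes grouped under latency and activation, THBS1, thrombospondin, was lower on every probe set that could be read. Its brightest, 201110_s_at, had 5839 signal units at 24 h, 7899 at 12 h and 10159 in the control, log2 differences of -0.80 and -0.36. The 24 h array was the lowest of the 3 and the control the highest. All 4 probe sets above the floor on all arrays kept that order, from -1.32 to -0.51 at 24 h and from -0.64 to -0.30 at 12 h.

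LTBP2 was placed among the latency genes by its family name, and its binding of latent TGF-beta was not read here. It had 233.5 units at 24 h, 264 at 12 h and 390.2 in the control, differences of -0.74 and -0.56. A dimmer probe set of it was at -0.06 and 0.31, so the gene's call rests on 1 probe set. LTBP1 was at -0.15 and -0.21, LTBP3 at -0.02 and 0.36, and LTBP4 at 0.22 and 0.18, at 24 h and 12 h. Their dimmer sets above the floor on all arrays differed from these in part. For LTBP1, 202728_s_at was at -0.09 and -0.79. For LTBP3, 219922_s_at was at 0.16 and 0.08, and for LTBP4, 210628_x_at was at 0.42 and -0.19. The latency and activation group therefore went both ways, with 4 of 5 lower at 24 h and 3 of 5 at 12 h on the probe set used. LTBP3 is counted as lower at 24 h on a difference of -0.02. Of all measured genes 49.9% were lower at 24 h and 48.4% at 12 h.

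**Figure D3:**
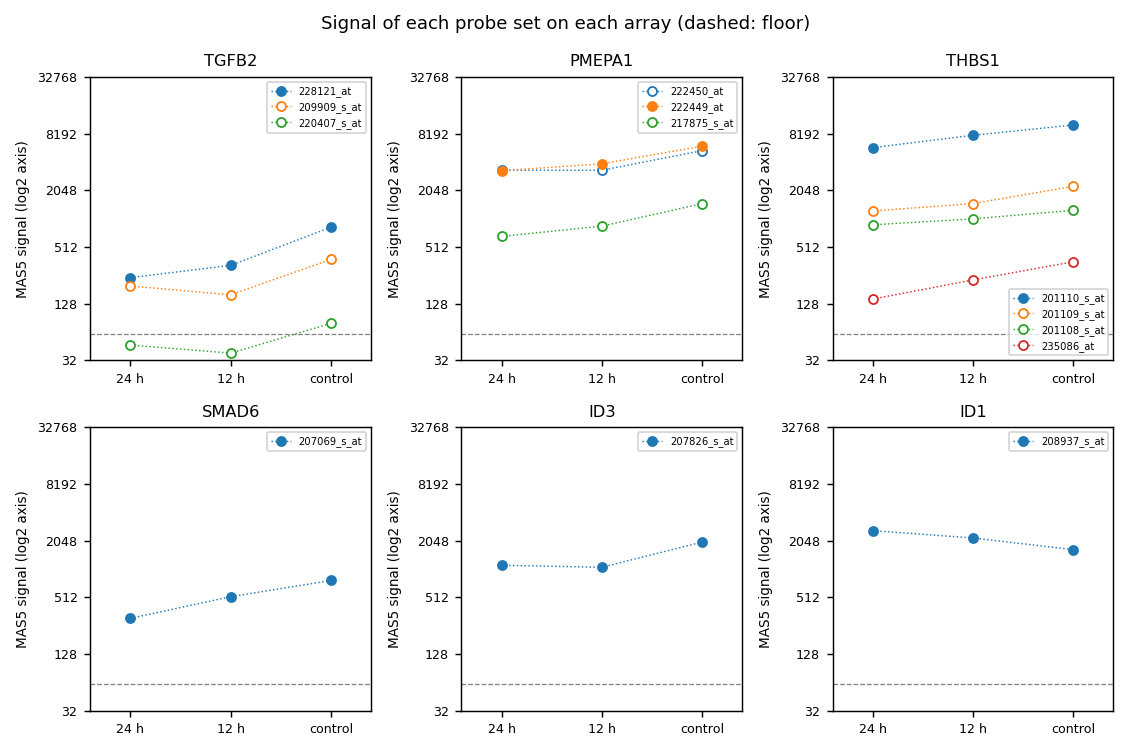
MAS5 signal (y axis, log2 scale) of each probe set above the floor on at least 1 array for TGFB2, PMEPA1, THBS1, SMAD6, ID3 and ID1 on the 24 h, 12 h and control arrays. Filled circles mark the probe set used for the gene, dotted lines join 1 probe set, and the dashed line is the floor of 61.4. Every plotted set of the first 5 genes is highest in the control, and ID1 is lowest there.

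Among receptors, the pair that binds TGF-beta itself was lower. TGFBR1, the type I receptor, had 3366 signal units at 24 h, 3880 at 12 h and 5174 in the control, differences of -0.62 and -0.42. All 3 of its probe sets were lower at both times, the smallest difference being -0.27 at 24 h. TGFBR2, the type II receptor, had 4738 at 24 h, 4694 at 12 h and 6620 in the control, -0.48 and -0.50. The treated arrays were nearly equal and the control stood above both. Its dimmer probe set crossed the floor only at 24 h, and as the median over both the 24 h difference was -0.01.

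The remaining receptors gave smaller differences on the probe set used for the gene, though not on every probe set. TGFBR3, the co-receptor betaglycan, was at -0.10 and -0.12 on its brightest set. Its dimmer set, 204731_at, had 910 units at 24 h, 743 at 12 h and 1076 in the control, -0.24 and -0.53, the 12 h difference being larger than those of TGFBR1 and TGFBR2. ACVR1B, the activin type I receptor, was at -0.15 at both times. ACVR1, a BMP type I receptor also called ALK2, was higher, with 1308 units at 24 h, 1500 at 12 h and 1133 in the control, 0.21 and 0.41. ACVR2A, a type II receptor for activins and BMPs, was at 0.24 and 0.04.

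BMPR2, the BMP type II receptor, gave opposite readings at 24 h. Its brightest probe set, 225144_at, had 2340 units at 24 h, 2675 at 12 h and 3137 in the control, and 231873_at had 769 at 24 h, 942 at 12 h and 976 in the control. Those sets were lower at 24 h by -0.42 and -0.34. In contrast, 209920_at had 868 units at 24 h, 383 at 12 h and 407 in the control, and 210214_s_at had 553 at 24 h, 269.5 at 12 h and 284 in the control. These were higher at 24 h, by 1.09 and 0.96, and stood near the control at 12 h, at -0.09 and -0.08. A dimmer set, 238516_at, lay below the floor at 24 h, with 93.4 units at 12 h and 117 in the control. Where on the transcripts these probe sets lie is not given in the sources used here, so no direction is given for BMPR2 at 24 h.

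SKI, a repressor that binds SMADs, was divided in the same way. Its brightest probe set, 229265_at, had 1099 units at 24 h, 977 at 12 h and 1231 in the control, -0.16 and -0.33. The set 204270_at had 748 at 24 h, 376 at 12 h and 336 in the control, 1.15 and 0.16. The dimmest set, 213755_s_at, was below the floor at 24 h, with 67.0 units at 12 h and 94.8 in the control. SMURF1, a ubiquitin ligase for SMADs and receptors, was at 0.01 and -0.04 on its brightest set, while its 3 dimmer sets were between 0.11 and 0.89 at 24 h and between 0.75 and 1.36 at 12 h. For SKI and SMURF1 the gene value is therefore that of 1 probe set among several that differ.

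**Figure D4:**
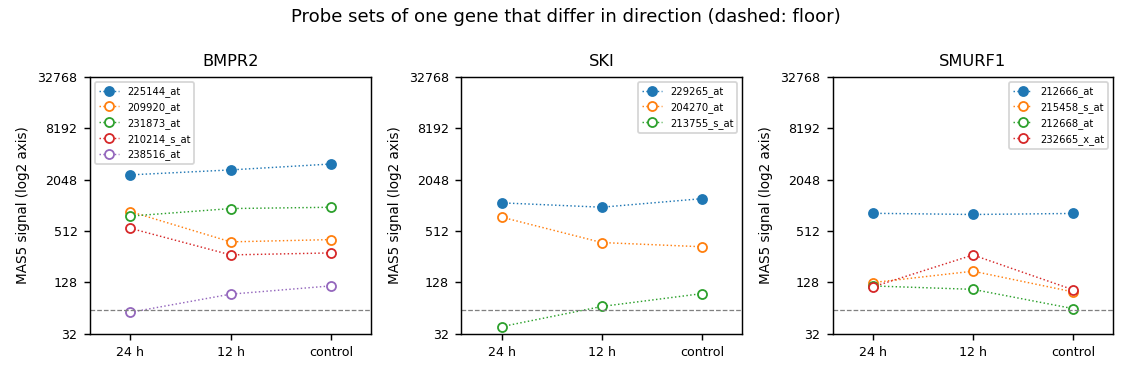
MAS5 signal (y axis, log2 scale) of the probe sets of BMPR2, SKI and SMURF1 above the floor on at least 1 array, on the 24 h, 12 h and control arrays. Filled circles mark the set used for the gene and the dashed line is the floor of 61.4. At 24 h, 209920_at and 210214_s_at of BMPR2 and 204270_at of SKI are above the control while the brightest set of each gene is below it.

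Of the SMADs that carry the signal 4 of 6 were lower at both times on the probe set used, SMAD5 of the BMP arm among them. Of all measured genes 49.9% were lower at 24 h and 48.4% at 12 h. SMAD3, which carries TGF-beta and activin signals, had 756 units at 24 h, 866 at 12 h and 1234 in the control, differences of -0.71 and -0.51. Its dimmer readable set, 205398_s_at, was lower by less, at -0.21 and -0.19. SMAD2, its partner in that arm, was at -0.20 and -0.16, with all 5 readable probe sets lower at 24 h and 4 of 5 at 12 h. On the BMP side SMAD1 was at 0.15 and 0.28 and SMAD9 at 0.31 and 0.24, while SMAD5 was at -0.15 at both times. SMAD1 had 2204 units at 24 h, 2421 at 12 h and 1992 in the control, so both treated arrays were above the control. Its set 210993_s_at was higher too, at 0.31 and 0.26, while the dim set 208015_at was at -0.0059 and -0.23. SMAD5 thus lay close to SMAD2 of the other arm, and it spanned -0.46 to 0.57 over its 5 probe sets at 24 h. SMAD4, the common partner, had 859 at 24 h, 1049 at 12 h and 1140 in the control, -0.41 and -0.12. All 3 of its readable sets were lower at 24 h. At 12 h its dimmer sets 235725_at and 1565703_at were above the control, at 0.07 and 0.17.

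Inhibitors and modulators of the pathway went both ways, with more of them lower than higher on the probe set used. SMAD6, the inhibitory SMAD best known for restraining BMP signals, had 307 units at 24 h, 522 at 12 h and 776 in the control. The 24 h array was the lowest, 2.53-fold below the control (-1.34), and the 12 h array was 1.49-fold below it (-0.57). This rests on 207069_s_at, since the other 3 SMAD6 probe sets were below the floor on every array. SMAD6 was also 1.70-fold lower at 24 h than at 12 h, one of 2 members past 1.5-fold in that comparison, where the background was 1.91% (the other, ID2, is a bound). No member was 1.5-fold higher there (background 1.46%). SMAD7, which blocks both arms, was at -0.28 and -0.16 on its only probe set.

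PMEPA1, a TGF-beta target that holds SMAD2 and SMAD3 away from the receptor, had 3317 units at 24 h, 3935 at 12 h and 6055 in the control on its brightest probe set, 222449_at. Both treated arrays lay well under the control, by -0.87 and -0.62. The sets 222450_at and 217875_s_at were lower too, at -0.69 and -1.15 at 24 h and -0.69 and -0.79 at 12 h. FST, follistatin, which traps activin, had 74.3 units at 24 h, 91.5 at 12 h and 129 in the control, -0.79 and -0.49, close to the floor. With the floor at the 65th percentile FST was not counted as measured.

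SKIL, a SMAD repressor related to SKI, had 2098 units at 24 h, 2561 at 12 h and 3070 in the control (-0.55 and -0.26). Of its other sets above the floor on all arrays, 206675_s_at was at -0.55 and -0.14 and 217591_at at 0.11 and 0.17, so its sets did not all point one way. With the median over probe sets SKIL was at -0.22 at 24 h. TGIF1, another repressor of SMAD targets, was at -0.02 and 0.04 on its brightest set and at -0.43 and -0.16 on the dimmer 1566901_at. SMURF2, a ubiquitin ligase, was at 0.04 and -0.04 on its brightest set. Its set 227489_at was at -0.35 and -0.20, while 230820_at was at 0.0029 and -0.0040 and 232020_at at -0.04 and 0.12. BAMBI, a decoy receptor, had the highest gene value of this group relative to the control at 12 h, with 795 units at 24 h, 942 at 12 h and 679 in the control (0.23 and 0.47). LDLRAD4, an inhibitor of TGF-beta signalling, was below the floor on all arrays. In the group of inhibitors and modulators 7 of 10 were lower at 24 h and 8 of 10 at 12 h. Of all measured genes 49.9% and 48.4% were lower, and the medians of the group were -0.22 and -0.21. Without SKI and SMURF1 the counts were 6 of 8 at both times, with medians of -0.41 and -0.21. Reading those genes from their brightest opposite set gave 6 of 10 at both times, with medians of -0.15 and -0.10.

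The ID genes, which encode inhibitors of helix-loop-helix transcription factors and are classic BMP targets, did not move together. ID1 had 2625 units at 24 h, 2196 at 12 h and 1649 in the control, 0.67 and 0.41. ID3 had 1126 at 24 h, 1072 at 12 h and 1987 in the control, -0.82 and -0.89. ID1 was thus highest at 24 h and ID3 highest in the control, each read by a single probe set. ID4 had 267 units at 24 h, 221.5 at 12 h and 155 in the control (0.78 and 0.51). A dimmer ID4 set, 209293_x_at, lay below the floor in the control and above it at both times. ID2 had 35.8 units at 24 h, 114 at 12 h and 90.1 in the control, so that its 24 h value is below the floor and its difference of -0.55 is a bound. TGFBI, a matrix protein named for its induction by TGF-beta, had 12593 at 24 h, 12287 at 12 h and 12456 in the control, and stood at 0.02 and -0.02.

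Upstream sequences are shown for TGFB2, PMEPA1, SMAD6 and ID3, which were lower, and for ID1, which was higher, so that the start regions of members that differed can be compared. They are the 250 bases before the RefSeq start on GRCh38.p14, for PMEPA1 before the outermost of 4 listed starts. TGFB2 is chr1:218345086-218345335 on the plus strand, PMEPA1 chr20:57711473-57711722 on the minus strand, SMAD6 chr15:66701986-66702235 on the plus strand, ID3 chr1:23559502-23559751 on the minus strand and ID1 chr20:31605039-31605288 on the plus strand. Capitals mark the SMAD box CAGAC (or GTCTG on the other strand), the GC-rich element GGCGCC, and the palindromic SMAD-binding element GTCTAGAC, which was added after the SMAD6 sequence was seen. None of these motifs contains another.
TGFB2: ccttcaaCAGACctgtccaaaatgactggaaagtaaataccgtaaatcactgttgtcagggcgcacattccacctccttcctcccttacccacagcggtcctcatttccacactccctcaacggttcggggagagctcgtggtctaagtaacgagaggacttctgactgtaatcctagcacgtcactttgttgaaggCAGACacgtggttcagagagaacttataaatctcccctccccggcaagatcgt
PMEPA1: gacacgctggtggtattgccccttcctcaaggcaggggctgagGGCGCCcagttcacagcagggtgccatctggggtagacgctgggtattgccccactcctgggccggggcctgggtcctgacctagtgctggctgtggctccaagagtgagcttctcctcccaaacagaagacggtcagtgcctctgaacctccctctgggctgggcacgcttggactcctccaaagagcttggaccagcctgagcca
SMAD6: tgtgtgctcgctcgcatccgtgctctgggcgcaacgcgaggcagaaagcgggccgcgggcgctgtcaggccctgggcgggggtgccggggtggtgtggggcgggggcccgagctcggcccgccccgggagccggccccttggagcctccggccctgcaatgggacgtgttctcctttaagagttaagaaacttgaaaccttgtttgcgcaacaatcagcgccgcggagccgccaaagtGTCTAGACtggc
ID3: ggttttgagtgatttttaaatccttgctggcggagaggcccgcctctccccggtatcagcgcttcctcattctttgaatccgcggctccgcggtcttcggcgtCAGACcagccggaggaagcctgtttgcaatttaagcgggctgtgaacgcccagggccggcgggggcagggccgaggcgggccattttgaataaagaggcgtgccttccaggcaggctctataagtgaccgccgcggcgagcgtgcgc
ID1: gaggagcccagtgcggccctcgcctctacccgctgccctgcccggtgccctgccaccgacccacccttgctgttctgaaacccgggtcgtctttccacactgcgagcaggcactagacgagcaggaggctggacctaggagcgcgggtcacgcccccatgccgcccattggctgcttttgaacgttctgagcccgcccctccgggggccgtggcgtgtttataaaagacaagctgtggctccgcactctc

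The TGFB2 window held CAGAC at 2 places and the ID3 window at 1, while the PMEPA1 window held GGCGCC at 1 place. SMAD6 held neither, but its last bases hold 1 GTCTAGAC. In the ID1 window none of the 3 was found, which says only that these letters are not in those 250 bases. CAGAC was present in 38.0% of all 35116 listed start windows of this length, GGCGCC in 16.4% and GTCTAGAC in 0.182%. Among the 86 windows of the 40 members listed there, 43.0% held CAGAC and 20.9% GGCGCC, and GTCTAGAC was found in SMAD6 only. A match of letters is not evidence of binding.

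Agreement between probe sets could be read for the 22 members with 2 or more sets above the floor on all arrays. At 24 h every set was lower for 12 of them and every set higher for LTBP4 and SMURF1, and 8 were mixed. Among all 5636 genes with 2 or more such sets, every set was lower for 24.6% at 24 h and for 24.9% at 12 h. Every set was higher for 24.9% at 24 h and 25.4% at 12 h, and 2842 and 2804 of the 5636 were mixed. The 12 were TGFB2, LTBP1, LTBP2, THBS1, TGFBR1, TGFBR3, ACVR1B, SMAD2, SMAD3, SMAD4, TGIF1 and PMEPA1. The 22 are mostly TGF-beta arm genes, 15 of them against 3 of the BMP arm and 4 shared, so that they allow little comparison of the arms. Every set was lower at 24 h for 11 of those 15, for 0 of the 3 (BMPR2, SMAD1 and SMAD5, all mixed) and for 1 of the 4. At 12 h every set was lower for 8 of the 22, every set higher for LTBP3, and 13 were mixed. By arm, every set was lower at 12 h for 7 of the 15, with 7 mixed, for 1 of the 3 and for 0 of the 4. Probe sets of 1 gene share RNA and array and are not replicates.

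**Figure D5:**
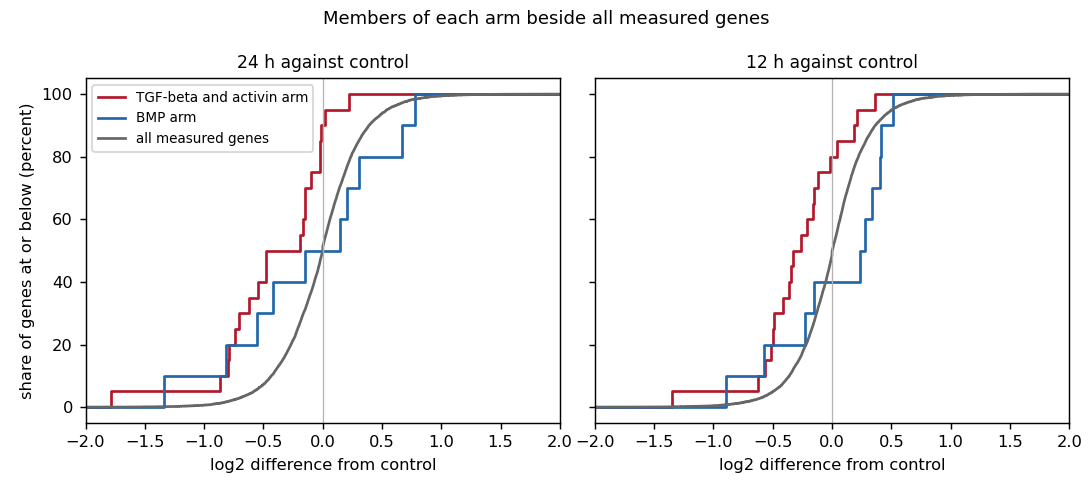
Share of genes (y axis, percent) at or below each log2 difference from the control array (x axis) at 24 h (left) and 12 h (right), for the TGF-beta and activin arm, the BMP arm and all 12351 measured genes. The curve of the TGF-beta arm lies left of that of all genes, its median being -0.34 at 24 h and -0.30 at 12 h, and the BMP arm crosses it.

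For 24 h against 12 h, 22 of 36 members were lower at 24 h, where 51.7% of all measured genes were, and the median was -0.13. The lowest members were ID2 at -0.89, which is a bound, and SMAD6 at -0.77, followed by THBS1 and TGFB2, each at -0.44. ID4 at 0.27 and ID1 at 0.26 were the highest. The arm medians were -0.15 for TGF-beta and activin and -0.07 for BMP.

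Of 72 other genes of the pathway, listed by role, 65 had a probe set and 51 were measured. At 24 h 35 of the 51 were lower and 1 was equal, and at 12 h 37 were lower and 2 were equal, with medians of -0.16 at both times. Among all measured genes 49.9% were lower at 24 h and 48.4% at 12 h. By 1.5-fold, 7 of 51 were lower at 24 h (background 4.91%) and 2 of 51 at 12 h (background 3.10%). Higher by that size was 1 of 51 at 24 h (background 4.09%) and 1 of 51 at 12 h (background 3.41%). No gene reached 2-fold. At 24 h the differences ran from -0.996, just short of 2-fold, to 0.73, both among other target genes. The upper one started from a control signal below the floor. Other target genes stood lowest among the 5 lists, with 11 of 14 lower at 24 h and 12 of 14 at 12 h and medians of -0.44 and -0.41. CCN2, a matricellular protein, had 1070 units at 24 h, 975 at 12 h and 1829 in the control (-0.77 and -0.91). TGM2, a transglutaminase that crosslinks matrix, had 1798 at 24 h, 1776 at 12 h and 2889 in the control (-0.68 and -0.70). ADAM19, a membrane metalloprotease, had 138 at 24 h, 160 at 12 h and 240 in the control (-0.80 and -0.58). In each of the 3 both treated arrays lay below the control. CCN2 also answers to other pathways.

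Among extracellular regulators 8 of 10 were lower at both times, against 49.9% of all measured genes at 24 h and 48.4% at 12 h. NOG, noggin, a BMP trap, had 396 units at 24 h, 523 at 12 h and 700.2 in the control (-0.82 and -0.42). ITGB8, an integrin subunit that releases latent TGF-beta, had 6939 at 24 h, 6898 at 12 h and 10257 in the control (-0.56 and -0.57), and FSTL3, a follistatin relative, was at -0.34 and -0.50. Like THBS1, ITGB8 was bright on every array and lower in both treated cultures. Other receptors were led by ACVR2B, an activin type II receptor, at -0.73 and -0.47, with BMPR1B at -0.17 and -0.50 and ENG, endoglin, at -0.13 and 0.07, and their medians were -0.13 and 0.04. The medians of other ligands were 0.05 and -0.01, with BMP7 at -0.45 and -0.50, GDF11 at -0.48 and -0.32 and BMP8B at 0.13 and 0.48. For intracellular regulators they were -0.02 and -0.08, with FKBP1A, which binds the type I receptor, at -0.53 and -0.24, TGIF2 at -0.19 and -0.17 and RNF111, a ubiquitin ligase, at -0.16 and -0.18.

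As a check of the cultures, 8 of 9 epithelial markers were measured, whereas NKX2-1, a lung lineage factor, was below the floor on all arrays. The summed signal of the 9 was 71082 at 24 h, 70223 at 12 h and 73063 in the control. Of the 8, EPCAM, KRT8, KRT18 and CDH1 lay between -0.18 and 0.08 at both times. KRT19 was at -0.60 and -0.54, KRT7 at -0.24 and -0.19 and CLDN4 at 0.79 and 0.69, and NAPSA was above the floor only at 24 h. Of 9 fibroblast markers 3 were measured, COL1A1, COL3A1 and FAP. The summed signal of the 9 was 1570 at 24 h, 1912 at 12 h and 2210 in the control. All 3 were lower at both times, as most TGF-beta arm genes were. COL1A1 is also listed among the other target genes of the pathway, so the 2 lists are not separate readings. COL1A2, PDGFRA, PDGFRB, LUM, DCN and THY1 lay below the floor throughout. Of 5 endothelial markers PECAM1 and TEK were measured, with summed signals over the list of 194 at 24 h, 229 at 12 h and 298 in the control. Of 7 genes listed for leukocytes 6 had a probe set and 3 were measured, with sums of 383.5, 401 and 398 in that order of arrays. Of the 3, CSF1R was above the floor on all arrays and ITGAM only in the control. The third, HBB, is a globin of red cells and not of leukocytes, and was above the floor only at 12 h, at 90.6 units. Control probe sets for the ends of the ACTB transcript, which read how intact the RNA was, gave a 3′ to 5′ ratio of 6.55 at 24 h, 5.38 at 12 h and 4.95 in the control. For GAPDH the ratio was 1.24, 1.25 and 1.21 in the same order. The part of the fibroblast markers and of RNA integrity in these differences was not tested.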

How the data were processed

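The deposited values are linear signal intensity, 1 per probe set, and MAS5 is the tool the authors used, according to the submitters' processing notes, with version and settings not given in the sources used here. Arrays were kept as scaled by the authors, with a 2% trimmed mean of 500.1 on each and median signals of 61.8 at 24 h, 60.6 at 12 h and 61.7 in the control.

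Gene names come from the platform annotation, in which 41097 of 54675 have 1 gene, 1801 several and 11777 none, and symbols were updated through the Entrez identifier. A gene took its brightest single-gene probe set by mean signal. A floor was put at 61.4, the 50th percentile of the table, lower signals were raised to it, and a gene was measured if above it on at least 1 array. No member was above it on 1 array only. Differences are log2 ratios of 2 arrays, tested on simulated data with planted changes. There are no replicates, hence no test, and the number of arrays limits the precision.

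Members and lists were chosen with earlier results of these data known. Every member may be named. Of each other list the 3 genes with the largest mean difference above the floor on all arrays are named, along with any gene at 2-fold, and of the markers those listed. The 8 alternatives were median centring, quantile normalization, cyclic loess (limma 3.58.1), floors at the 25th and 65th percentile, no floor with a pseudocount of 1, the median over probe sets, and transcript-specific probe sets without an _s_at or _x_at suffix. Leaving out members whose probe sets point opposite ways, or reading BMPR2, SKI and SMURF1 from their brightest opposite set, was added after the values were seen.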

Additional observations from a re-analysis of the deposited data

Results flagged for a closer look

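ID2, an inhibitor of helix-loop-helix factors, was the 1 measured member that lay below the control at 24 h, at -0.55, and above it at 12 h, at 0.34, by more than the spread of 0.18 between the treated arrays over all measured genes. That difference between the times was not tested, since each time is 1 array. The 24 h value is a bound set by the floor, and its signals of 35.8 units at 24 h, 114 at 12 h and 90.1 in the control are low.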

How the results depend on the processing

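Over the 8 alternatives, list medians moved by no more than the 0.18 spread between the treated arrays in 369 of 384 cases, and counts of genes stayed within 1.5 times in 201 of 216. Median centring, quantile normalization and cyclic loess moved none of the list medians or counts. Shared genes lower by any amount were 4 at 24 h with transcript-specific probe sets, and 5 for 24 h against 12 h with the median over probe sets. The difference of the arm medians kept its sign for both times against the control. At 12 h it was -0.32 under the 65th percentile floor, where the BMP arm median was 0.025. The cause of these changes was not tested beyond the number of genes each setting keeps.

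The count of members 2-fold lower at 24 h was 5 of 39 with the floor at the 25th percentile (5.01% of all genes). It was 5 of 40 with no floor (9.49%) and 1 of 36 with the median over probe sets (0.510%). For 24 h against 12 h it was 3 of 39 with the lower floor (4.33% of all genes) and 4 of 40 with none (8.86%). The count at 1.5-fold lower there was 4 of 39 (9.47%) and 5 of 40 (13.9%), or 1 of 32 with the higher floor (0.638%). At 24 h, 5 of 36 members were 1.5-fold lower with the median over probe sets (4.17% of all genes). With the higher floor 1 of 32 was 1.5-fold higher. At 12 h, 1 of 40 members was 2-fold and 1.5-fold higher with no floor, where 8.20% of all genes were 2-fold higher. With the median over probe sets 2 of 36 were 1.5-fold higher. The share of all genes 1.5-fold higher was not counted under these settings, so those counts of members have no background.

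The ligand median, over 3 genes, turned to 0.21 at 12 h with the floor at the 25th percentile and to 0.0060 with no floor, both of which add ligands near background. It was -0.85 at 12 h and -1.13 at 24 h with the 65th percentile, -0.57 and -0.90 with transcript-specific probe sets, and -0.24 at 24 h with no floor. Latency and activation genes were at -0.56 at 12 h and -0.74 at 24 h with transcript-specific probe sets. With the 65th percentile, targets were at 0.092 and 0.24 and other ligands at -0.33 and -0.20 at 12 h and 24 h.

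The readings that leave out or turn members with opposing probe sets were chosen after the values were seen. Without BMPR2, SKI and SMURF1 at 24 h the arm medians differed by -0.63 and the inhibitor median was -0.41. Leaving out every member with mixed probe sets put the BMP arm at 24 h at 3 of 7 lower with a median of 0.21, and the arm difference at -0.69. At 12 h it left 15 of 23 members lower, 4 of 5 inhibitors with a median of -0.49, and 1 of 2 shared genes with a median of 0.16. For 24 h against 12 h it left 9 of 15 TGF-beta arm genes and 3 of 7 BMP arm genes lower. No paired analysis was possible because each group holds 1 array.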

Other observations

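The probe sets of BMPR2 and of SKI at 24 h, and of SMURF1 at 12 h, lay farther apart than those of most genes. Among 5636 genes with 2 or more probe sets above the floor on all arrays, the median range of log2 differences from the control within a gene was 0.35 at 24 h and 0.30 at 12 h. For BMPR2 the range at 24 h was 1.51, and 53 of the 5636 genes had a range as large. Among the 604 genes with 4 such probe sets, as BMPR2 has, 15 did. At 12 h its range was 0.18. For SKI the range at 24 h was 1.32, which 21 of 3157 genes with 2 such sets reached. The SMURF1 range at 12 h was 1.40, reached by 10 of 604 genes with 4 sets.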
